A study of Mus musculus with 16 samples.

Results

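Transcript levels were compared between CD8 and CD4 T cells of WT mice that had been activated in culture for 18 h. The comparison used 4 of the 16 arrays of the series, those labelled CD8 WT 18 h (2 arrays) and CD4 WT 18 h (2 arrays), and covered all 12394 genes that a probe set named alone, each gene being read by the brightest such probe set. WT mice carried floxed Gabpa alleles (Gabpa f/f) and no Cre, and KO mice were Gabpa f/f with CD4 Cre, a transgene that acts in developing T cells before the lineages part. Gabpa itself, the targeted gene, was not lower in the arrays labelled KO, where its probe set lay between 9.09 and 9.79 (median 9.59, n = 8) against 8.74 and 9.34 in WT arrays (median 9.06, n = 8), and its other probe set lay at a median of 8.25 against 6.96. Whether either probe set falls in the floxed part was not given in the sources used here, so that their levels do not check the label. By immunoblot, the study found GABPα protein barely detectable in CD4 and CD8 T cells of KO mice. Naive cells, taken as CD25-, CD62L high and CD44 low, were sorted by flow cytometry from spleen and lymph nodes. Each sort gave both a resting sample (0 h) and a sample grown for 18 h with IL-2 and antibodies to CD3 and CD28. The 0 h WT arrays (4) and the 18 h KO arrays (4) served for comparison. The labels do not say how many mice went into a sort.

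CD4 and CD8 T cells arise from a common thymic precursor. CD4 cells, whose fate depends on the zinc finger factor Thpok (Zbtb7b), recognize peptides on MHC class II and help other cells through cytokines and surface ligands of the TNF family. CD8 cells, whose fate depends on Runx3, recognize peptides on MHC class I and kill target cells with perforin and granzymes. Ligation of the T cell receptor with CD28 brings both from rest into growth, with production of IL-2 and entry into the cell cycle.

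The labelled lineages were first checked against the coreceptor genes. Cd8a, one chain of the CD8 coreceptor, lay at 11.51 and 11.28 (log2 level) in CD8 replicates 1 and 2 and at 6.85 and 5.11 in CD4 replicates 1 and 2. Cd8b1, the other chain, lay at 11.63 and 11.18 in CD8 and at 7.45 and 5.89 in CD4 arrays. The groups did not overlap for either gene, as was so for 42.4% of all genes (5251 of 12394), and CD4 replicate 1 stood above CD4 replicate 2 for both. Cd4 lay at 6.59 and 6.36 in CD4 and at 5.59 and 4.95 in CD8 arrays, a difference of -1.21 ± 0.24 (log2, SE from limma, n = 2 arrays per group). In bulk RNA, fewer cells with a transcript and less of it per cell cannot be told apart. The Cd4 call (adjusted p = 0.0163) was lost without CD4 replicate 1, CD4 replicate 2 or CD8 replicate 2, with adjusted p up to 0.13.

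The 4 arrays did not stand equally far apart. CD4 replicate 1 exceeded CD4 replicate 2 for Gzmb (8.96 against 6.10), Tbx21 (9.29 against 6.79), Ifng (9.01 against 6.39) and Ccl3 (8.38 against 5.90), genes of effector cells. CD8 replicate 1 exceeded CD8 replicate 2 for Il7r (10.82 against 8.64), S1pr1 (8.43 against 6.64) and Klf2 (10.84 against 9.20), genes of resting cells. Results that rest on these arrays are given without them below, and the part of this spread in the differences was not tested. As a sign of RNA quality, the 3' probe sets of actin and Gapdh lay above the 5' probe sets by 0.77 and 0.82 on average (log2) in CD4 and by 0.46 and 0.61 in CD8 replicates 1 and 2. This measure thus moved with the lineages, and its part in the differences was not tested.

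A gene was called where its adjusted p was under 0.05 and its fold over 1.5. Between CD8 and CD4 cells 288 genes (2.32% of those tested) were called higher in CD8 and 119 (0.96%) lower, while the median difference of all genes was -0.01. The counts and medians of every gene list below are to be read against these shares and this median. The calls higher in CD8 had a median difference of 1.28, and 45 of them exceeded 4-fold. Those lower in CD8 had a median of 1.21 in size, and 12 exceeded 4-fold. With each array centred on its median the split was 227 higher and 179 lower. With the replicate number as a block within each lineage the counts were 471 and 231. Counts depended on single arrays. Without CD4 replicate 1, CD4 replicate 2 and CD8 replicate 1 there were 162, 102 and 95 genes higher and 67, 55 and 33 lower, against 278 and 93 without CD8 replicate 2. The calls that passed in all 16 further fits, each without 1 array of the series, numbered 72 higher and 27 lower, and such calls are described below as kept.

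**Figure D1:**
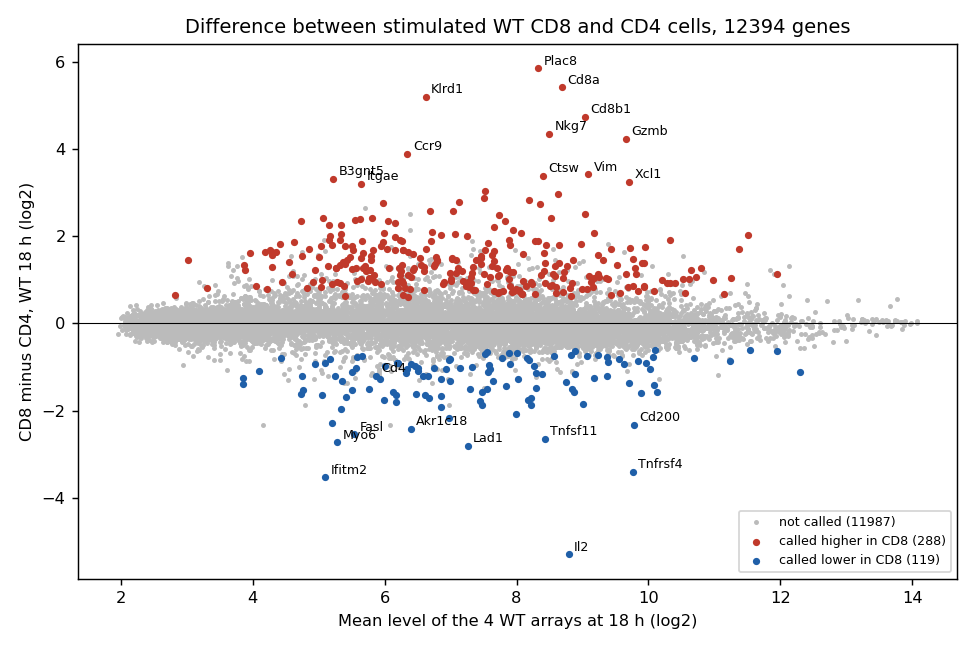
Difference between CD8 and CD4 WT cells at 18 h (log2, vertical axis) against the mean level of the 4 arrays (log2, horizontal axis), 1 point per gene. The 288 genes called higher in CD8 are red, the 119 called lower are blue and the others grey. Il2 lies lowest at -5.30 and Plac8 highest at 5.86.

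The promoters of 4 genes from both ends of the comparison are shown so that genes which parted between the lineages can be set side by side at their starts: Il2 and Tnfrsf4, among the lowest in CD8, and Nkg7 and Gzmb, among the highest. Each run gives the 250 bases before the start of transcription, 5′ to 3′ on the strand of the gene, from RefSeq (GRCm38.p6). Capitals mark the letters TGTGGT (the core of Runx sites), TCACAC (T-box), GGAAAA (NFAT) and TGANTCA (AP-1), searched on both strands.
Il2 (chr3:37125955-37126204, minus strand): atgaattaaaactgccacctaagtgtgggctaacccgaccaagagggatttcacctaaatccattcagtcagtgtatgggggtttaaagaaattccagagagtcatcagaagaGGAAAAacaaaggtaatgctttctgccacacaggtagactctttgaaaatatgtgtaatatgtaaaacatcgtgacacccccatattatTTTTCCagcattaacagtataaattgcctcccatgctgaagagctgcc
Tnfrsf4 (chr4:156013445-156013694, plus strand): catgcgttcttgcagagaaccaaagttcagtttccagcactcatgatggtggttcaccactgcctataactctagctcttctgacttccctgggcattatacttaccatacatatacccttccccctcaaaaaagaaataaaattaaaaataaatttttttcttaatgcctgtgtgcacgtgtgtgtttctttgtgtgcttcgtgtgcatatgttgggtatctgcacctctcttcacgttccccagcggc
Nkg7 (chr7:43436888-43437137, plus strand): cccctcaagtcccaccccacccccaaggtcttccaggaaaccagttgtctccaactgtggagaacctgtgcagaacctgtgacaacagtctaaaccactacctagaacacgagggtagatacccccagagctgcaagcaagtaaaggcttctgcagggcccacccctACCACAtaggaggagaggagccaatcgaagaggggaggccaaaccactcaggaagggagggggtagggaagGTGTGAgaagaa
Gzmb (chr14:56262335-56262584, minus strand): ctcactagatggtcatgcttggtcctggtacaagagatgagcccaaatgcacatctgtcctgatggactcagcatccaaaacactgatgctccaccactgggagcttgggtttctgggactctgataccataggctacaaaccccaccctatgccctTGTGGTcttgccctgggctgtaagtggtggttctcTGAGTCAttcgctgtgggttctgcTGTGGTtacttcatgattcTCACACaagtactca

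The Gzmb window held 2 Runx, 1 T-box and 1 AP-1 match, that of Nkg7 1 Runx and 1 T-box match, that of Il2 2 NFAT matches, and that of Tnfrsf4 none. The windows of Cd8a, among the highest in CD8, and Ifitm2, among the lowest, were searched too and are not printed. Cd8a held no match and Ifitm2 held 1 NFAT match. Runx and T-box matches thus did not go with every gene searched at the CD8 end. Among genes with exactly 1 promoter listed, TGTGGT occurred in 29 of 173 called higher in CD8 (16.8%), in 4 of 77 called lower (5.2%) and in 904 of 7939 tested (11.4%). GGAAAA occurred in 21.4%, 24.7% and 19.2% of them, TCACAC in 9.8%, 9.1% and 9.5%, and TGANTCA in 5.2%, 1.3% and 5.3%. Over all 32851 promoters listed, the shares were 14.0% for TGTGGT, 20.4% for GGAAAA, 12.3% for TCACAC and 6.7% for TGANTCA. These are counts of letters and show no binding.

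The lowest difference belonged to Il2, the T cell growth factor. It lay at 11.97 and 10.92 in CD4 and at 4.88 and 7.39 in CD8 replicates 1 and 2, a difference of -5.30 ± 0.71 (adjusted p = 0.00139) that was kept. The groups were apart, and CD8 replicate 1 was close to the 0 h arrays, which lay near 4 in both lineages. Tnf was the other of 25 measured cytokine genes that was called, at -1.17 ± 0.20 (adjusted p = 0.00566), and its call was lost without CD4 replicate 1 or CD8 replicate 1 (adjusted p up to 0.0901). Ifng, the main cytokine of type 1 responses, lay at 9.01 and 6.39 in CD4 and at 9.30 and 9.53 in CD8 arrays and was not called (1.72 ± 1.14, adjusted p = 0.66). No cytokine gene was called higher in CD8, and the list had a median of -0.22. Without CD4 replicate 1, CD4 replicate 2, CD8 replicate 1 and CD8 replicate 2 it held 1, 4, 1 and 2 lower calls.

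Genes on the TNF superfamily list were called lower in CD8 cells 4 times and higher 1 time among 28 measured, against 0.96% and 2.32% of all genes. This list does not hold Tnf, which was counted with the cytokines and was also called lower (-1.17). Lta and Ltb, likewise counted with the cytokines, were not called. Tnfrsf4, which encodes the costimulatory receptor OX40, lay at 11.40 and 11.55 in CD4 and at 7.68 and 8.44 in CD8 arrays (-3.41 ± 0.27, adjusted p = 7.6e-05, kept). Fasl, the ligand of the death receptor Fas, lay at 6.67 and 6.96 in CD4 and at 4.15 and 4.38 in CD8 arrays (-2.55 ± 0.29, adjusted p = 0.000604, kept), and its other probe set gave -1.41. The CD8 arrays were the lower ones for both genes, by more than either lineage's replicates were apart. Tnfsf11, the ligand RANKL, differed by -2.65 ± 0.41, a call lost without CD8 replicate 1 (adjusted p = 0.06). Tnfsf9, the ligand of 4-1BB, differed by -1.11 ± 0.27, and its call passed in 7 of the 16 fits, being lost without CD4 replicate 1 or either CD8 array (adjusted p up to 0.371). Tnfsf10, the death ligand TRAIL, was the member higher in CD8 (0.96 ± 0.24, adjusted p = 0.0487) and passed in 2 of them, being lost without any of the 4 compared arrays (adjusted p up to 0.248). Cd40lg, the helper ligand for B cells, lay between 4.20 and 4.43 in all 4 arrays. The list held no higher call without any 1 of the 4 arrays, and 3, 4, 2 and 3 lower calls in the order used above.

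Other genes at the CD4 end had varied roles. Ifitm2, of a family that restricts viral entry, lay at 6.71 and 7.02 in CD4 and at 3.24 and 3.43 in CD8 arrays (-3.53 ± 0.28, adjusted p = 7.6e-05, kept). Lad1, a basement membrane protein, differed by -2.81 ± 0.33, the myosin gene Myo6 by -2.73 ± 0.40 and the steroid dehydrogenase gene Akr1c18 by -2.41 ± 0.20, all kept. Other probe sets of Myo6 gave -0.72 and -0.30. Cd200, a surface ligand that restrains myeloid cells, lay at 10.98 and 10.90 in CD4 and at 8.55 and 8.67 in CD8 arrays (-2.33 ± 0.29, kept). Replicates of Cd200 were within 0.2 of each other, far less than the gap between lineages. Tiam1, an exchange factor for Rac, differed by -2.18 ± 0.31 and was kept, although its other probe set gave 0.00. The tetraspanin gene Cd81 differed by -2.09 ± 0.36, a call lost without CD4 replicate 2 or CD8 replicate 1 (adjusted p up to 0.0649).

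Among 46 effector and lineage transcription factors 8 were called lower and 3 higher in CD8, with a median of -0.02. Bcl6, the repressor that directs follicular helper cells, lay at 6.14 and 6.53 in CD4 and at 4.37 and 3.74 in CD8 arrays (-2.28 ± 0.27, adjusted p = 0.000713, kept), and its other probe set gave -0.54. Zbtb7b (Thpok) lay at 6.06 and 5.98 in CD4 and at 4.88 and 4.51 in CD8 arrays (-1.33 ± 0.18, adjusted p = 0.00147, kept), with -0.51 from its other probe set. The CD4 arrays were the higher ones for each. Nr4a1 and Bhlhe40, which receptor signals induce, differed by -1.61 ± 0.34 and -1.59 ± 0.31. The call of Nr4a1 was lost without any 1 of the 4 compared arrays (adjusted p up to 0.187), and that of Bhlhe40 without CD4 replicate 1, CD4 replicate 2 or CD8 replicate 1 (up to 0.183). Runx1 had a difference of -2.34 ± 0.79 and Irf4 of -1.27 ± 0.32 that were not called (adjusted p = 0.172 and 0.053) without a block but were with the block within lineages (0.0226 and 0.019). Other probe sets of Runx1 gave -2.02, -0.51, -0.31 and 0.12.

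Eomes, a T-box factor of cytotoxic cells, had the largest difference of the factors, at 9.84 and 9.39 against 7.69 and 5.86 in CD4 arrays (2.84 ± 0.61, adjusted p = 0.0241). This call passed only without CD4 replicate 1 among the 4 compared arrays, and reached an adjusted p of 0.231 without another. Id2, an inhibitor of E proteins, was higher by 1.82 ± 0.42 (lost without CD4 replicate 1, CD4 replicate 2 or CD8 replicate 1, adjusted p up to 0.337), and Zbtb32 by 1.36 ± 0.30 (lost without any of the 4, up to 0.266). Runx3 lay between 5.03 and 5.50 in all 4 arrays and was not called (0.21 ± 0.19, adjusted p = 0.786). Tbx21, which encodes T-bet, was at 8.52 and 8.41 in CD8 arrays, between both CD4 values. Without CD4 replicates 1 and 2 and CD8 replicates 1 and 2 the list of factors held 1, 0, 0 and 1 higher and 4, 3, 4 and 7 lower calls.

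Of 18 measured genes of CD8 identity, 10 were called higher in CD8 and none lower (median 1.85), and of 14 of CD4 identity 5 were called lower and none higher (median -0.77). Without 1 of the 4 arrays there were 7 or 8 such CD8 calls and 3 such CD4 calls. The lists share some genes with others described here. Klrd1, which encodes the CD94 receptor, lay at 9.77 and 8.68 in CD8 and at 4.94 and 3.10 in CD4 arrays (5.20 ± 0.62, adjusted p = 0.000772, kept). Itgae, the integrin CD103, lay at 7.68 and 6.81 in CD8 and at 4.01 and 4.08 in CD4 arrays (3.20 ± 0.39, adjusted p = 0.000818, kept). Cd8a and Cd8b1 differed by 5.42 ± 0.66 and 4.74 ± 0.65, both kept. Among CD4 identity genes Cd5, an inhibitor of receptor signals, differed by -0.79 ± 0.19 and passed in 5 of 16 fits (lost without CD4 replicate 2 or either CD8 array, adjusted p up to 0.339), while Trat1 and Gata3 were not called (-1.88 ± 0.53 and -1.19 ± 0.44, adjusted p = 0.0833 and 0.224). With the block within lineages Trat1 was called (0.00462), and the CD4 identity list held 8 lower calls.

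The cytotoxic genes split. Of 25 measured, 5 were called higher in CD8 and 1, Fasl, lower, and the median was 0.16. Ctsw, a cathepsin of cytotoxic granules, lay at 10.43 and 9.77 in CD8 and at 6.70 and 6.71 in CD4 arrays (3.40 ± 0.19, adjusted p = 4.79e-06, kept). Gzmb (granzyme B) lay at 11.81 and 11.75 in CD8 and at 8.96 and 6.10 in CD4 arrays (4.24 ± 0.87, adjusted p = 0.0187). CD8 arrays were close together and CD4 arrays far apart. The Gzmb call passed only without CD4 replicate 1 of the 4 compared arrays, with adjusted p up to 0.183 otherwise. Nkg7, a granule membrane protein, differed by 4.35 ± 0.69 (lost without CD4 replicate 2 or CD8 replicate 1, adjusted p up to 0.06). Prf1 (perforin) lay at 6.62 and 5.96 in CD8 and at 4.48 and 4.26 in CD4 arrays, and its call (1.92 ± 0.46, adjusted p = 0.0422) was lost without any of the 4 (up to 0.378). Its other probe set gave 0.15. Gzma lay between 4.16 and 5.13 in all 4 arrays. Without CD4 replicate 1, CD4 replicate 2, CD8 replicate 1 and CD8 replicate 2 the list held 4, 1, 1 and 2 higher calls.

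**Figure D2:**
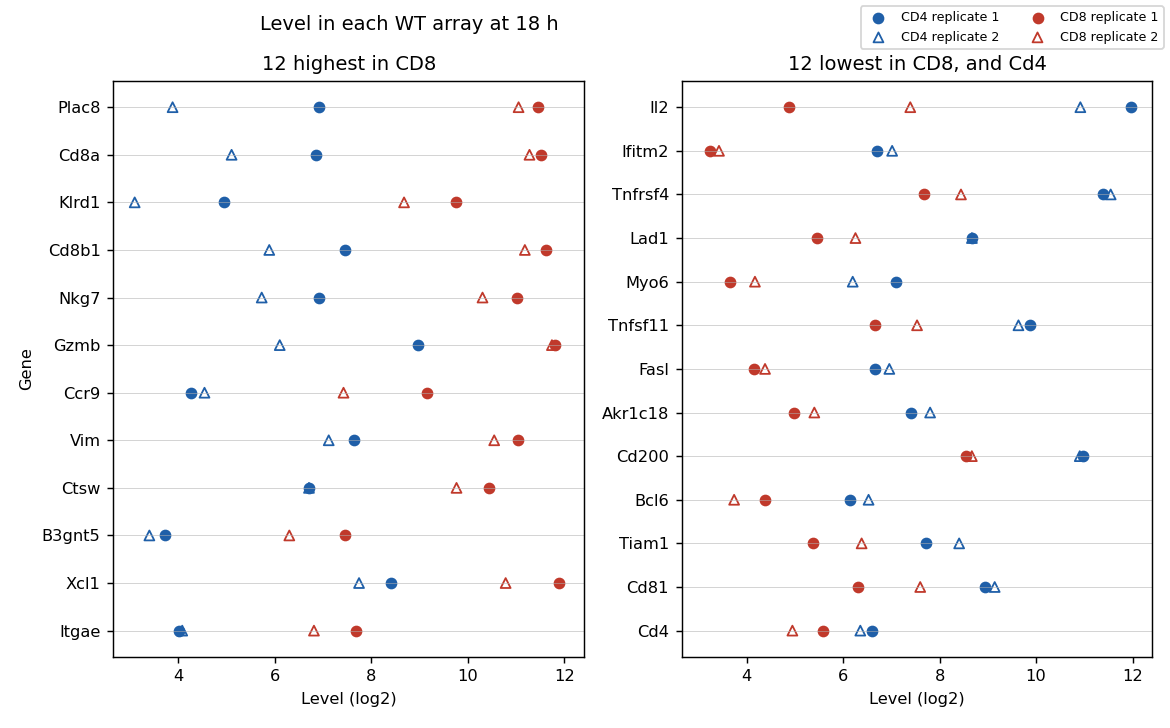
Log2 level in each WT array at 18 h for the 12 genes highest and the 12 lowest in CD8 among called genes, and for Cd4. CD4 arrays are blue and CD8 arrays red, with circles for replicate 1 and triangles for replicate 2. Gzmb shows CD8 arrays at 11.81 and 11.75 and CD4 arrays at 8.96 and 6.10, while for Ctsw the CD4 arrays coincide near 6.7.

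Chemokines and their receptors were called higher in CD8 6 times and never lower among 30 measured (median 0.17). Xcl1, which attracts cross-presenting dendritic cells, lay at 11.89 and 10.79 in CD8 and at 8.42 and 7.75 in CD4 arrays (3.26 ± 0.44, adjusted p = 0.0015, kept). Ccr9, the receptor for homing to the small intestine, lay at 9.16 and 7.43 in CD8 and at 4.26 and 4.54 in CD4 arrays (3.89 ± 0.51, adjusted p = 0.00128, kept). Its other probe sets gave 1.92 and 2.56. Ccr9 and Vim were read by probe sets whose type (x_at) can share probes with other transcripts. Ccl3, an inflammatory chemokine, differed by 2.98 ± 0.66, a call lost without CD4 replicate 2, CD8 replicate 1 or CD8 replicate 2 (adjusted p up to 0.216). Cxcr3, a receptor for interferon-induced chemokines, differed by 1.77 ± 0.32 and was lost without CD4 replicate 1 or CD8 replicate 2 (up to 0.0813). The count was 4, 4, 3 and 3 without CD4 replicates 1 and 2 and CD8 replicates 1 and 2, and with the block within lineages 1 gene was lower.

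Cytokine receptors were called higher 4 times and never lower among 29 (median 0.21), against 2.32% and 0.96% of all genes. Il10ra, a chain of the IL-10 receptor, lay at 6.47 and 5.89 in CD8 and at 4.61 and 3.72 in CD4 arrays (2.02 ± 0.28, adjusted p = 0.00172, kept), while its other probe sets gave 0.77 and 0.04. Il10rb, its partner chain, was higher by 1.01 ± 0.17, lost without CD4 replicate 2 or CD8 replicate 1 (adjusted p up to 0.084). Il7r, the receptor for the survival factor IL-7, was higher by 2.43 ± 0.55, lost without any of them but CD8 replicate 2 (up to 0.262). Without CD4 replicate 1, CD4 replicate 2, CD8 replicate 1 and CD8 replicate 2 the list held 2, 1, 1 and 7 higher calls, and with the block within lineages 7 higher and 1 lower. Il2ra, the IL-2 receptor chain CD25, lay between 7.95 and 8.87 in the 4 arrays and was not called (-0.22 ± 0.52, adjusted p = 0.956).

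Costimulatory and inhibitory receptors were called 4 times in each direction among 23 measured. Cd96, a receptor for poliovirus receptor family ligands, lay at 8.84 and 8.76 in CD8 and at 7.20 and 6.82 in CD4 arrays (1.79 ± 0.23, adjusted p = 0.00114, kept). Pdcd1, the inhibitory receptor PD-1, lay at 8.70 and 9.40 in CD4 and at 6.95 and 7.62 in CD8 arrays (-1.76 ± 0.31, adjusted p = 0.00709). The Pdcd1 call was lost without CD4 replicate 2 or CD8 replicate 1 (adjusted p up to 0.11). Slamf1, a receptor that binds itself on other lymphocytes, was lower in CD8 by 1.21 on the log2 scale and Cd48 higher by 1.27 ± 0.21, calls lost without the same arrays (up to 0.0701 and 0.0896). Ctla4 was not called (-1.11 ± 0.42, adjusted p = 0.251), but was with the block within lineages (0.0293). Without CD4 replicate 2 or CD8 replicate 1 the list held 1 call in each direction.

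Proximal T cell receptor signalling had 5 genes higher and 2 lower of 34 (median 0.09). Tec, a kinase activated by the receptor, was higher in CD8 by 1.44 ± 0.23 (adjusted p = 0.00378) and the adaptor gene Sla2 by 1.59 ± 0.22 (adjusted p = 0.00181), both kept. Grap2, the adaptor GADS, was higher by 1.30 ± 0.21 and was lost without CD8 replicate 1 (adjusted p = 0.0577), and Ptpn22, a phosphatase, by 1.13 ± 0.21 and was lost without CD4 replicate 1 or CD8 replicate 1 (up to 0.133). Without CD8 replicate 1 the list held 2 higher calls and none lower, and with the block within lineages 7 and 6. The lower calls of this list were Cd5 (-0.79 ± 0.19) and Sla (-0.91 ± 0.20, adjusted p = 0.0278). The call of Sla was lost without CD4 replicate 1, CD8 replicate 1 or CD8 replicate 2. Without 1 of the compared arrays the difference of Sla shrank to -0.56. Outside this list, Dusp6, a phosphatase induced by and acting on ERK, lay at 10.05 and 9.80 in CD4 arrays. It lay at 7.63 and 8.52 in CD8 arrays (-1.85 ± 0.28, adjusted p = 0.00277, kept) and belongs to the STAT5 and feedback list.

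Calls among memory-associated genes went one way. Of 16 memory-like genes 8 were called higher and none lower (median 1.14), a list on which Cd44, whose protein was used in the sort, was not called (-1.05 ± 0.45, adjusted p = 0.341). Vim (vimentin) lay at 11.05 and 10.55 in CD8 and at 7.63 and 7.12 in CD4 arrays (3.42 ± 0.49, adjusted p = 0.00219, kept), and its other probe sets gave 3.75 and 3.83. S100a13 was higher by 1.90 ± 0.32 and kept. Lgals3 (galectin-3) and Crip1 were higher by 2.87 ± 0.48 and 1.91 ± 0.31, both lost without CD4 replicate 2 or CD8 replicate 1 (adjusted p up to 0.0647 and 0.0645). Without CD4 replicate 1, CD4 replicate 2, CD8 replicate 1 and CD8 replicate 2 this list held 5, 4, 4 and 6 higher calls. Of 23 integrin and adhesion genes 5 were called higher and 1 lower. Selplg, the selectin ligand PSGL-1, lay at 10.81 and 10.18 in CD8 and at 8.86 and 9.18 in CD4 arrays (1.47 ± 0.20, adjusted p = 0.0015, kept), and Itgb7, the partner of Itgae, at 9.55 and 9.12 against 7.47 and 7.62 (1.80 ± 0.20, adjusted p = 0.000604, kept). Without CD8 replicate 1 the adhesion list held 3 higher and no lower calls, and with the block within lineages 8 and 1. Plac8, with the largest difference of all called genes, lay at 11.45 and 11.05 in CD8 and at 6.91 and 3.88 in CD4 arrays (5.86 ± 0.84, adjusted p = 0.00205, kept). B3gnt5, a glycosyltransferase, was higher by 3.32 ± 0.36 and kept, with 0.76 from its other probe set.

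Of 30 interferon response genes 3 were called higher and 1 lower. The list median was 0.89, against -0.01 over all genes, and 27 differences were above 0. Ifitm2, described above at -3.53 and kept, was not on this list. Zbp1, a sensor of nucleic acids, was higher by 1.66 ± 0.38 (adjusted p = 0.034) and passed in 5 of 16 fits, being lost without CD4 replicate 2 or either CD8 array (up to 0.311). Ifih1, the sensor MDA5, was lower by 1.31 on the log2 scale (adjusted p = 0.0309), lost without any of the 4 compared arrays (up to 0.227). The list's mean level was 7.24 and 6.68 in CD4 and 8.18 and 7.52 in CD8 replicates 1 and 2, so that CD4 replicate 1 lay closer to CD8 replicate 2 than to CD4 replicate 2. Ifit3, at 8.36 and 6.93 in CD8 and at 5.53 and 4.71 in CD4 arrays, was not called (2.52 ± 0.64, adjusted p = 0.0517), but was with the block within lineages (0.00859), which gave 5 higher calls and 1 lower. Without CD4 replicate 1 there were 4 higher and 0 lower calls, and without CD4 replicate 2 or CD8 replicate 1 none in either direction.

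Genes of antigen presentation on MHC class I had differences above 0 for 13 of 14, and 2 were called higher. Their median was 0.59, against -0.01 over all genes. Psmb10, an immunoproteasome subunit, lay at 10.48 and 10.10 in CD8 and at 8.64 and 8.53 in CD4 arrays (1.71 ± 0.18, adjusted p = 0.00038, kept). Psmb8, of the same complex, was higher by 1.05 ± 0.21, lost without CD4 replicate 2 or CD8 replicate 1 (adjusted p up to 0.161). The list held 3, 1, 1 and 3 higher calls without CD4 replicates 1 and 2 and CD8 replicates 1 and 2.

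Naive and quiescence genes had 4 calls higher and none lower of 22 (median 0.52). Klf2, which keeps T cells at rest and in circulation, lay at 10.84 and 9.20 in CD8 and at 8.34 and 8.58 in CD4 arrays (1.56 ± 0.37, adjusted p = 0.038), and the call passed in 3 of 16 fits, being lost without either CD4 array or CD8 replicate 1 (up to 0.218). All calls of this list were lost without CD4 replicate 1, CD4 replicate 2 or CD8 replicate 1, and 6 were made without CD8 replicate 2. STAT5 targets and feedback genes were called higher 4 times and lower 2 times of 17. Xdh, an enzyme of purine breakdown, differed by 2.26 ± 0.38 and was lost without CD4 replicate 2 (adjusted p = 0.0721), and Socs1, an inhibitor of cytokine signals, lay at 7.43 and 7.15 in CD8 and at 6.05 and 5.54 in CD4 arrays, a call lost without CD4 replicate 2, CD8 replicate 1 or CD8 replicate 2 (up to 0.204). Bcl2l1, the survival factor Bcl-xL, was lower in CD8 (-1.57 ± 0.24, adjusted p = 0.00353), lost without CD8 replicate 1 (0.0576), and its other probe sets gave -0.76, -0.54 and 0.00. The list held 3, 0, 1 and 2 higher calls without CD4 replicates 1 and 2 and CD8 replicates 1 and 2.

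For growth and replication genes the calls are read against 2.32% higher and 0.96% lower of all genes. None was called among 20 of the MCM helicase and origins (median -0.09), 29 of the replication fork and dNTP synthesis (0.14), 19 of glycolysis (-0.04), 17 of amino acid transport and serine synthesis (-0.25), 21 of Myc and ribosome biogenesis (-0.37), 28 of the respiratory chain (0.08), 16 of sterol synthesis (-0.27) and the GABP subunits Gabpa and Gabpb1. Without CD4 replicate 2 the Myc and ribosome list held 1 higher call, and with the block within lineages 1 lower. At an unadjusted p under 0.05, 1585 of all 12394 genes passed limma. In mitosis 2 of 23 were called higher (median 0.79), of which Ccnb2 (cyclin B2) at 1.53 ± 0.18 was kept (adjusted p = 0.000667) and Nusap1, a spindle protein, at 1.64 ± 0.31 was lost without CD4 replicate 2 or CD8 replicate 2 (up to 0.131). The other probe set of Nusap1 gave 0.01. The mitosis list held 2, 1, 4 and 1 higher calls without CD4 replicates 1 and 2 and CD8 replicates 1 and 2. Mean levels of this list were 6.35 and 5.92 in CD4 and 6.50 and 7.14 in CD8 arrays. Among G1 and S phase genes 3 of 19 were called higher, with the inhibitors Cdkn2d (1.30 ± 0.28) and Cdkn2c (0.94 ± 0.18) and the cyclin Ccnd3 (0.68 ± 0.15). Each was lost without CD4 replicate 2 or CD8 replicate 1, and Cdkn2c and Ccnd3 without either of the other arrays compared too (adjusted p up to 0.291). Without these arrays in the order used above the list held 1, 0, 0 and 1 calls.

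**Figure D3:**
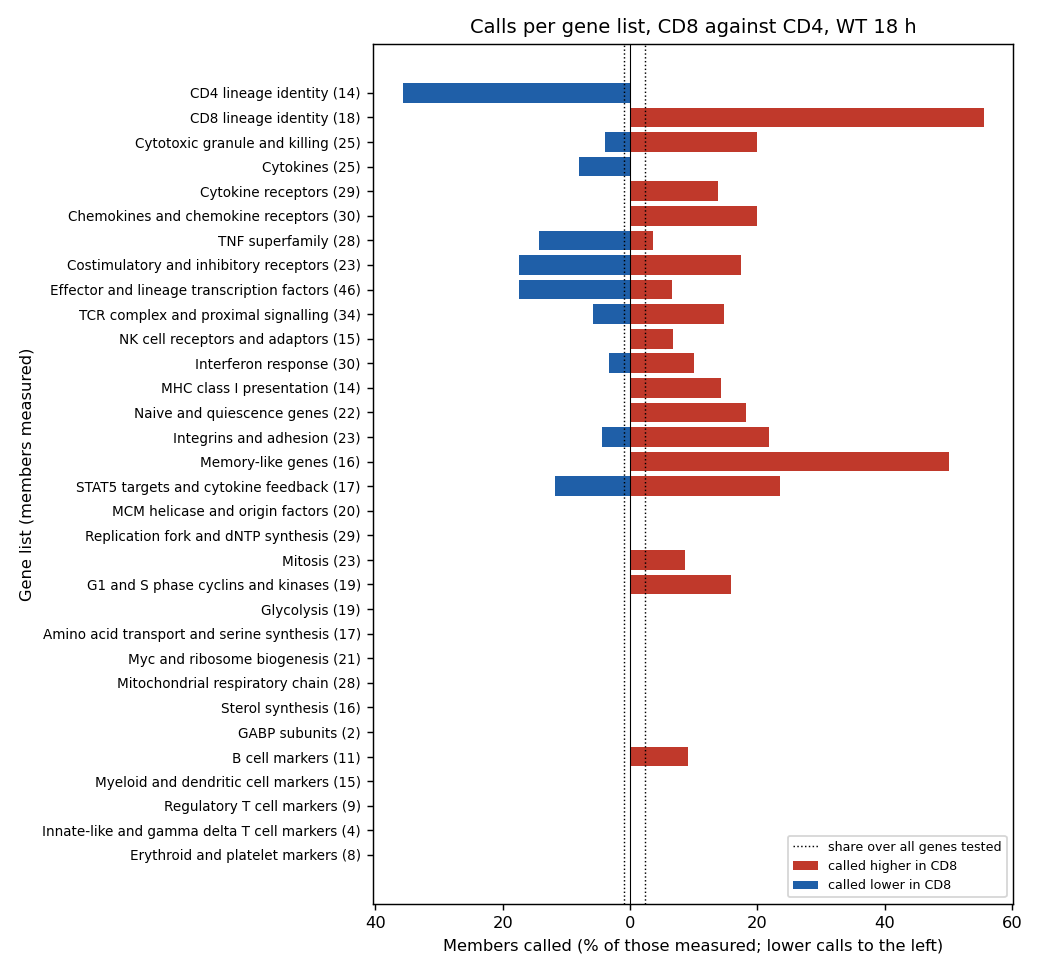
Share of measured members called higher (red, right) or lower (blue, left) in CD8 than in CD4 WT cells at 18 h for each of 32 gene lists, with the number measured in brackets. Dotted lines mark the shares over all genes, 2.32% and 0.96%. The CD8 identity and memory-like lists reach furthest to the right, with 10 of 18 and 8 of 16 called, and the CD4 identity list furthest to the left, with 5 of 14.

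Markers of other cells were also read. The summed level of 11 B cell markers (log2 of the sum of linear values) was 10.74 and 10.57 in CD4 and 10.49 and 10.83 in CD8 arrays. It was carried by Ighm, at 10.30 to 10.68 in all 4. Cd79b, a chain of the B cell receptor, was called higher in CD8 (2.42 ± 0.48, adjusted p = 0.0159) and was lost without any of the 4 arrays (up to 0.105), while its partner Cd79a lay between 3.59 and 4.25. For 15 myeloid markers the sums were 8.86 and 8.74 in CD4 and 8.81 and 8.98 in CD8 arrays, with Lyz2 between 3.41 and 3.96. Of 15 NK cell receptors and adaptors Klrd1 alone was called (2 genes with the block within lineages), and the sums of 8.39 and 8.35 in CD4 and 10.45 and 9.72 in CD8 arrays followed it, while Ncr1, which defines NK cells, lay between 2.76 and 2.98. Sums of 9 regulatory T cell markers were 11.61 and 11.69 in CD4 and 10.93 and 11.21 in CD8 arrays, with Foxp3 between 3.63 and 4.60 and none called, or 3 lower with the block within lineages. Sums of 8 erythroid and platelet markers lay between 7.19 and 7.42, and of 4 innate-like T cell markers between 7.08 and 7.37. The lowest value of any gene on these arrays was near 1.7.

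Resting cells, lysed before culture, were set beside the stimulated ones to ask which differences were already there. At 0 h 159 genes (1.28%) were called between WT CD8 and CD4 cells, or 257 with the block within lineages. The array CD4 WT 0 h replicate 1 had a 3' to 5' difference of 1.58, against 0.48 in replicate 2, which limits the 0 h values. Of the 288 genes higher in CD8 at 18 h 41 were also called higher at 0 h (14.2% of them, and 51.2% of the 80 called higher at 0 h). At 0 h 199 of the 288 differed by less than 1.5-fold, against 11605 of all 12394 genes, a smaller share than over all genes. Of the 119 lower genes 26 were called lower at 0 h (21.8%, and 32.9% of the 79 called lower at 0 h), and 70 differed by less than 1.5-fold. Cd8a and Itgae already differed by 5.49 and 5.03 at 0 h, and Fasl by -3.28. Il2 and Ifitm2 differed by -0.01 and 0.19.

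Most genes higher in CD8 at 18 h were genes whose level at 18 h lay below that at 0 h, in CD4 cells more than in CD8 cells. Among the 288, the mean of CD4 arrays was over 1.5-fold lower at 18 h than at 0 h for 230 (79.9%) and that of CD8 arrays for 165 (57.3%), against 16.5% and 10.3% of all genes. Since the level of CD4 cells at 18 h also chose these genes, the shares are a description. Vim lay near 11 in all 4 arrays at 0 h, and at 18 h it stayed near 11 in CD8 and was near 7 in CD4 arrays. Among the 119 lower genes the CD4 mean was over 1.5-fold higher at 18 h than at 0 h for 81 (68.1%) and the CD8 mean for 50 (42.0%), against 14.6% and 11.7% of all genes. Gzmb was of another kind, with a mean at 18 h above that at 0 h in both lineages.

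**Figure D4:**
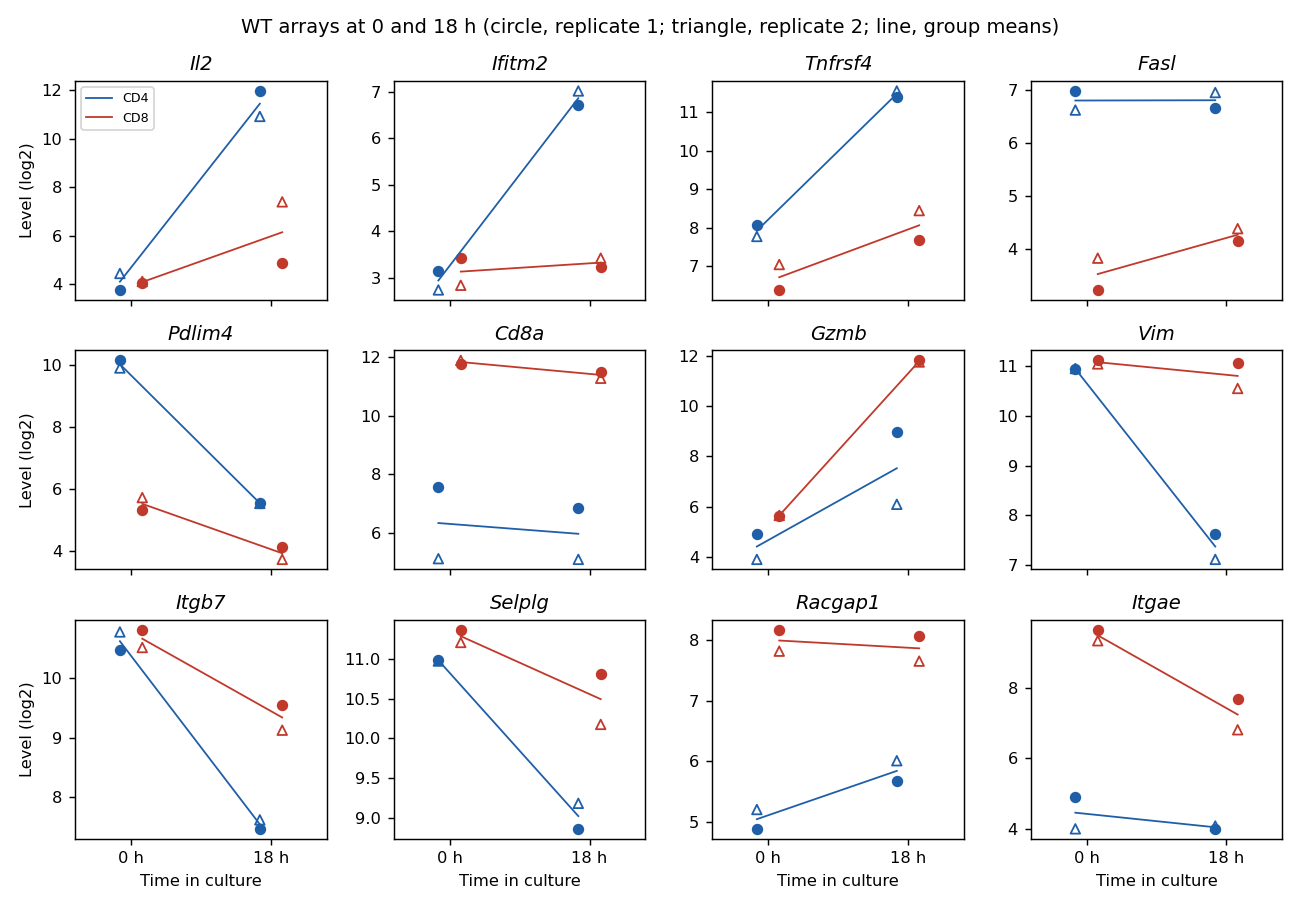
Log2 level of 12 genes in WT arrays at 0 h and 18 h, with CD4 in blue, CD8 in red, circles for replicate 1, triangles for replicate 2 and lines joining group means. Il2 and Ifitm2 part at 18 h with the CD4 line above. For Tnfrsf4 the CD4 line is already above at 0 h (-1.21) and the gap widens. Vim, Itgb7 and Selplg part with the CD4 line below. Of these 3, the change with time was called for Itgb7 and not for Vim or Selplg (limma, adjusted p = 0.0722 and 0.117). Cd8a and Itgae are apart at both times.

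The change of the difference between 0 h and 18 h was tested itself, without a block for the shared sorts. It passed for 46 genes (0.371%), 28 upwards and 18 downwards, of which 28 were called at 18 h and not at 0 h and 13 at 0 h and not at 18 h. With the replicate number as a block within each lineage 172 genes passed, 121 upwards and 51 downwards. With arrays centred on their medians the split was 18 and 22. Pdlim4, a LIM domain protein, went from -4.50 at 0 h to -1.61 at 18 h (change 2.88 ± 0.28, adjusted p = 0.00264), and Ifitm2 from 0.19 to -3.53 (-3.72 ± 0.40, adjusted p = 0.00344). These were the 2 changes that passed in all 16 fits without 1 array. Il2 passed (-5.29 ± 1.01, adjusted p = 0.0494) in 3 of the 16. Ehd1, of endosome recycling, went from 2.45 to -0.51 and Snx9, a sorting nexin, from 1.19 to -1.03. The count ranged from 2, without CD8 WT 18 h replicate 1 or either CD8 WT 0 h array, to 99 without CD8 WT 18 h replicate 2. It was 3 without CD4 WT 0 h replicate 1 or CD4 WT 18 h replicate 2, 7 without CD4 WT 0 h replicate 2 and 15 when CD4 WT 18 h replicate 1 was left out, as it was for each CD4 KO array at 0 h. Without either CD4 KO 18 h array it was 23, without either CD8 KO 0 h array 27 and without either CD8 KO 18 h array 86.

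The 18 h arrays labelled KO gave the same contrast in cells of other mice. The replicate 2 minus replicate 1 differences of WT and KO groups at 18 h correlated at 0.451 in CD4 and 0.392 in CD8. The WT and KO contrasts can therefore not be taken as independent. They called 1693 genes (13.7%), 1130 higher and 563 lower in CD8. With each array centred on its median the split turned to 739 higher and 1342 lower, and the median difference of all genes went from 0.04 to -0.22. Of the 288 genes higher in CD8 in WT cells 259 were called higher in KO cells (89.9%, and 22.9% of the 1130 KO calls). In KO cells 284 of the 288 had the same sign, and 2 were called lower. Of the 119 lower genes 102 were called lower (85.7%, and 18.1% of 563), and 115 had the same sign. The array CD8 KO 18 h replicate 2 had a 3' to 5' difference of 3.76, and without it 242 and 105 of the genes were called (84.0% and 88.2%) among 751 and 424 KO calls. With centred arrays 235 and 111 of the genes were called in KO (81.6% and 93.3%). Il2 differed by -4.08 in KO, Tnfrsf4 by -3.54, Klrd1 by 5.75, Vim by 4.38 and Gzmb by 3.21.

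The difference between WT and KO in the lineage contrast passed for 5 genes (0.0403%), against 847 at an unadjusted p under 0.05 by limma and 17 with the block within lineages. Ifitm2 was at -3.53 in WT and -0.86 in KO (-2.67 ± 0.40, adjusted p = 0.0434), and Racgap1, a regulator of cytokinesis, at 2.02 and 3.87 (-1.85 ± 0.27, adjusted p = 0.0434). For Rbp4, Il1a and Zeb2 the WT difference was between -0.21 and 0.13 and that in KO was 3.05, -3.06 and -3.27. Rbp4 and Il1a passed in all 16 fits without 1 array, and Ifitm2, Racgap1 and Zeb2 in 1, 2 and 3 of them. Without CD8 KO 18 h replicate 2 the differences of Rbp4, Il1a and Zeb2 passed and those of Ifitm2 and Racgap1 did not. The count was 2 without any 1 of the 0 h arrays, either CD4 WT 18 h array or CD8 WT 18 h replicate 2, 3 without CD4 KO 18 h replicate 2, between 4 and 7 without the others but one, and 586 without CD8 KO 18 h replicate 1, when the array of high 3' to 5' difference was alone in its group.

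**Figure D5:**
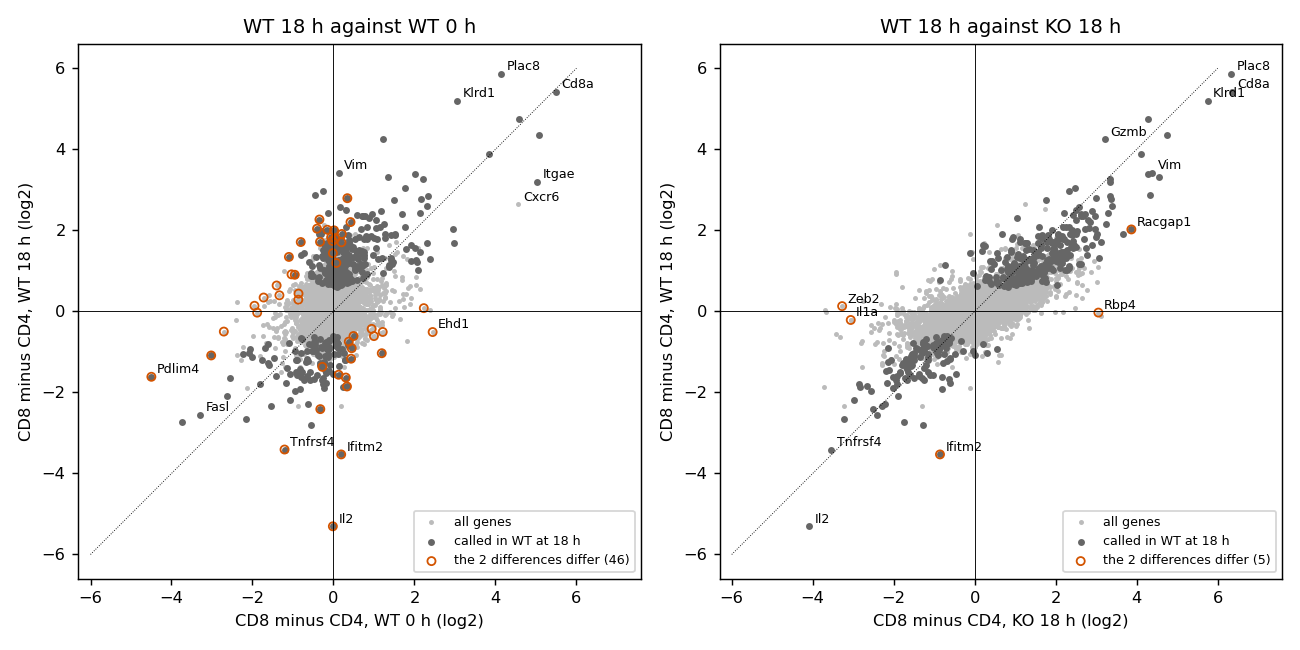
Difference between CD8 and CD4 in WT cells at 18 h (log2, vertical axes) against that in WT cells at 0 h (left) and in KO cells at 18 h (right), 1 point per gene. Dark points are the genes called in WT at 18 h, open circles the 46 and 5 genes whose differences differed between the conditions, and the dotted line marks equality. Il2 lies at -5.30 on the vertical axis and at -0.01 for 0 h and -4.08 for KO.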

How the data were processed

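Total RNA was amplified in successive rounds, labelled with biotin and hybridized to Affymetrix mouse expression arrays, 16 in all (8 groups of 2). The deposited values were log2 probe set levels that the authors had made with the R package affy (version and summary method not given in the sources used here), and they were not normalized further. Of 22690 probe sets 20393 named 1 gene, and each of the 12394 genes was read by the probe set of highest mean. Precision is limited by the number of arrays, which have no sequencing depth.

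The lineage contrasts came from limma 3.58.1 (R 4.3.3; lmFit, contrasts.fit and eBayes), with a mean per group over all 16 arrays, 8 residual and 4.32 prior degrees of freedom, and Benjamini-Hochberg adjustment over 12394 genes. The steps were tested on simulated data whose noise was independent between arrays, which leaves out the replicate correlations given below. The labels number the replicates without the mouse of origin of each sort, and a p-value therefore covers just the spread among the arrays at hand. The replicate 2 minus replicate 1 differences correlated across genes at 0.264 to 0.451 between CD4 groups and 0.182 to 0.559 between CD8 groups. Between lineages they correlated at -0.602 to -0.122. The numbers thus paired arrays within a lineage, and ran the opposite way between lineages. A block with crossed numbers, which matches CD4 replicate 1 to CD8 replicate 2, was fitted as an alternative. The main fit used no block, although each sort gave both a 0 h and an 18 h sample. Its test of the change with time therefore leaves that pairing out. The labels do not say whether the lineages were paired. Blocked values stand beside the results whose calls or counts they moved.

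Genes named were the coreceptor genes, the 12 highest and 12 lowest called, up to 4 called per direction and 2 uncalled per list, up to 6 per direction for the change with time and up to 6 for the change with genotype. Tbx21, Runx3, Il2ra, Gzma, Cd40lg and the defining markers of other cells were added after their values were seen. The members, lists and tests were chosen with earlier results of these data known. Promoters came from RefSeq (GRCm38.p6), with an entry for 327 of 407 called genes. Alternatives were centring, filters, probe set choice, weights, blocks and leaving out arrays.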

Additional observations from a re-analysis of the deposited data

Results flagged for a closer look

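The changes given here are in log2 and come from limma without a block. The CD8 minus CD4 difference differed between 18 h and 0 h in WT cells for 17 of the genes chosen by the naming rule. It moved down for Il2 (-5.29), Ifitm2 (-3.72), Ehd1 (-2.96), Snx9 (-2.23), Tnfrsf4 (-2.20), Dusp6 (-2.19) and Akr1c18 (-2.09). It moved up for Pdlim4 (2.88), Pglyrp2 (2.61), Drc1 (2.52), Gm20559 (2.45), Smpdl3a (2.45), Igfbp4 (2.44), Il10ra (2.17), Gata1 (1.95), Itgb7 (1.75) and Psmb10 (1.51). Of these, Ifitm2 and Pdlim4 passed in all 16 fits without 1 array, and the others were lost in some (Il2, Tnfrsf4, Gm20559 and Gata1 in 13 of 16).

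Between WT and KO arrays at 18 h the difference between lineages itself differed for Zeb2 (3.40), Il1a (2.85), Rbp4 (-3.08), Ifitm2 (-2.67) and Racgap1 (-1.85). In WT cells at 18 h Zeb2, Il1a and Rbp4 lay below 4 in all 4 arrays. Without CD8 KO 18 h replicate 2, the array with a 3' to 5' difference of 3.76, Zeb2, Il1a and Rbp4 passed and Ifitm2 and Racgap1 did not.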

How the results depend on the processing

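The counts of genes higher and lower in CD8 at 18 h (288 and 119) were 47 and 17 when tested relative to a 1.5-fold change, 145 and 66 with the 4 WT 18 h arrays alone, and ranged from 95 to 398 and from 33 to 175 without 1 array. Lower genes numbered 179 with arrays centred on their medians and 183 once the 3 arrays with the steepest 3' to 5' signal were dropped. With the replicate block they were 272 and 107, and with a replicate block within each lineage 471 and 231. Crossed numbers, chosen after seeing the data, gave 453 and 220 here, 241 at 0 h, 161 for the change with time and 23 for the change with genotype. At 0 h (159) the count was 49 relative to 1.5-fold, 257 with the block within lineages and 64 to 207 without 1 array. In KO (1693) it was 389 relative to 1.5-fold, 941 with array weights and 782 to 2854 without 1 array.

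The change with time (46) gave 17 genes with the probe set of largest variance, 2 relative to 1.5-fold, 14 with the 8 WT arrays, 91 with array weights, 172 with the block within lineages and 2 to 99 without 1 array. The change with genotype (5) gave 0 among genes with a mean of at least 5, 3 with the mean of all probe sets or array weights, 2 with the probe set of largest variance, relative to 1.5-fold or with the replicate block, 17 with the block within lineages and 2 to 586 without 1 array.

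The differences of 10 uncalled genes changed sign under some setting. Without CD4 WT 18 h replicate 1 Il3 was at 0.12, Asns at 0.49, Ms4a1 at 0.16, Il2ra at 0.0015 and Ighm at 0.05, and without CD8 WT 18 h replicate 1 Asns was at 0.69, Il2ra at 0.24 and Ighm at 0.14. Without CD4 WT 18 h replicate 2 Tbx21 was at -0.83, Gzma at -0.43 and Cd79a at 0.31, and without CD8 WT 18 h replicate 2 Gabpa was at 0.22, Zeb2 at -0.12 and Gzma at -0.04. Gzma was at -0.026 with centred arrays and Ighm at 0.32 with the probe set of largest variance. Without 1 array the differences ranged from -2.28 to 0.12 for Il3, -2.03 to 0.69 for Asns, -1.05 to 0.16 for Ms4a1, -0.28 to 0.22 for Gabpa, -0.12 to 0.38 for Zeb2, -0.83 to 1.67 for Tbx21, -0.67 to 0.24 for Il2ra, -0.43 to 0.55 for Gzma, -0.23 to 0.14 for Ighm and -0.34 to 0.31 for Cd79a. Of the genes named, none lost its call with the block within lineages. A fit without 1 array assumes that a lone array varies like the other groups, and the causes were not tested. Fits of the 4 WT 18 h arrays give no value for the other comparisons, nor do those of the 8 WT arrays for KO. With 2 arrays per group, small differences were not detectable.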
